A study of Homo sapiens with 30 samples.

Results

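A higher and a lower dose of Omomyc were compared after 24 h in HCT116, an established human line of colorectal carcinoma cells. The comparison rests on 6 of the 30 libraries of the series, 3 from cells given 10 μM Omomyc and 3 from cells given the lower dose, and on the 15039 of 57992 genes with a mean RPKM (reads per kilobase of a gene, normalized to sequencing depth) of at least 0.5 over these 6 libraries. The lower dose is written 2 μM in the labels and 2.5 μM in the study's methods, and 2.5 μM is used here. The titles of the 6 libraries give 24 h, while their time tag gives 4 h, and 24 h is used. All 6 cultures received Omomyc together with ProteoJuice, a reagent that carries protein into cells, and the methods do not say whether the 3 untreated cultures received ProteoJuice too. The other libraries used here, in the same line, are 3 of each dose at 6 h and 3 untreated. The labels give no time for the untreated libraries, so differences from them cannot be told apart from time in culture. Nothing in the labels says whether replicates are separate cultures, so the p-values measure the spread between these libraries, which may be technical.

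Omomyc is a small engineered protein that keeps the part of MYC that binds DNA and partner proteins, altered so that it can pair more widely. It pairs with itself, with MAX and with MYC, and its dimers can occupy E boxes, the CACGTG sites to which MYC/MAX dimers bind, without the activation domain of MYC. MYC drives genes for ribosomes, nucleotides and metabolism. Immediate early genes such as FOS and EGR1 respond within minutes to growth factor signaling through ERK, and the sterol genes are driven by SREBP2 when the membrane of the endoplasmic reticulum runs short of cholesterol.

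The 6 libraries were alike in their overall values. Summed RPKM ranged from 659047 to 729627 over the libraries of 10 μM and from 669145 to 703766 over those of 2.5 μM, and the correlation of log2 values within a group lay between 0.99 and 0.993. No read numbers came with the table, so depth is unknown and errors are those among the 3 replicates. Epithelial markers were present at both doses, with KRT8 between 679 and 768 RPKM. Of the 9 listed, 6 passed the filter, among them the intestinal marker CDX2. The others were CDX1 and CEACAM5, listed at 0 in all 6 libraries, and VIL1, which did not pass 0.0602 RPKM. The 9 epithelial markers summed to 1901 to 1993 RPKM at 10 μM and 1947 to 2144 RPKM at 2.5 μM. The 7 B cell markers summed to 0.817 to 1.04 RPKM and 0.237 to 0.509 RPKM, and the 6 fibroblast markers to 4.29 to 5.71 RPKM and 5.83 to 6.64 RPKM, respectively. Fewer cells of a kind and less RNA per cell cannot be told apart in such bulk RNA.

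Few genes passed the threshold between 2.5 and 10 μM Omomyc. With 3 libraries of each dose, a gene that did not pass may still differ. Of the 15039 genes tested, 27 (0.18%) had an adjusted p under 0.05 (limma on log2(RPKM + 0.5), Benjamini-Hochberg), with 21 (0.14%) higher and 6 (0.0399%) lower at 10 μM, and 1739 genes (11.6%) had an unadjusted p under 0.05, 5.59% higher and 5.98% lower. All 27 had groups that did not overlap, as did 2718 genes (18.1%) of all tested. The median absolute log2 difference of all genes was 0.09, and the median standard error was 0.0927. Of the 27 genes, 14 were protein-coding (0.113% of 12372 tested), 11 were pseudogenes (1.5% of 733) and 2 were other RNAs (0.103% of 1934). The count was 4 without the mean trend of the variance, 5 with no filter on low values, 8 with all 5 HCT116 groups in the fit, and 9 without 10 μM replicate 1 or without replicate 2. Of the 27, 7 had a mean under 0.5 RPKM at 2.5 μM, 6 pseudogenes and S100A9, so that they passed the filter only through the dose at which they were high. With each library scaled to an equal sum of RPKM, 47 genes passed and 21 of them (44.7%, against 77.8%) were higher at 10 μM.

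**Figure D1:**
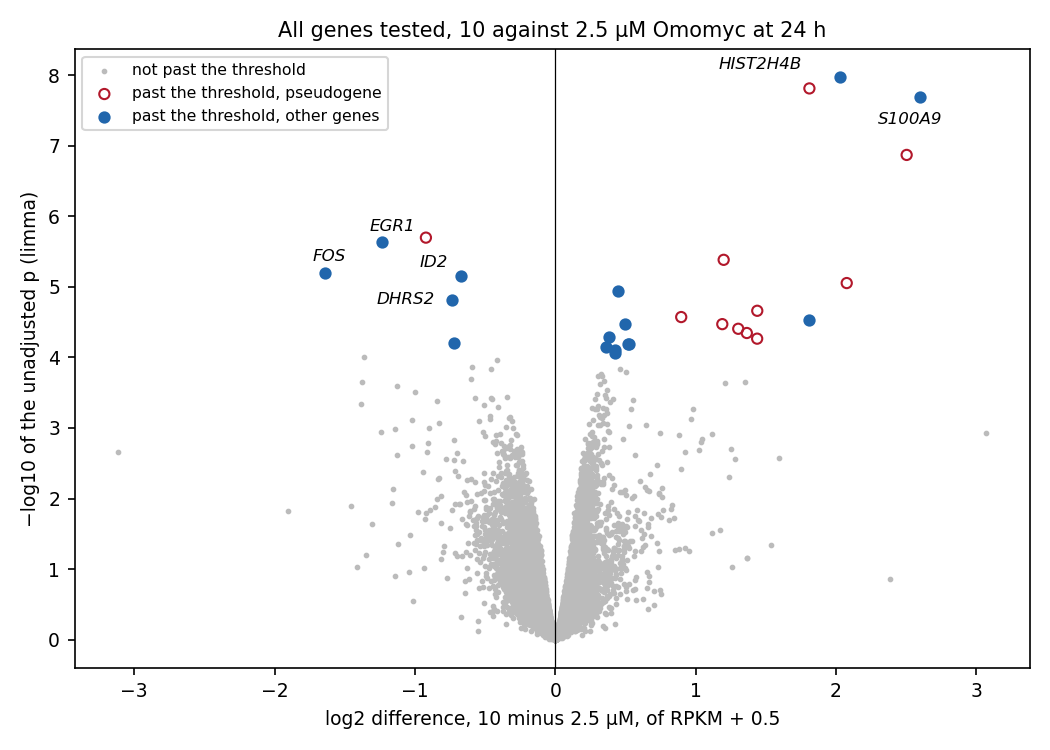
Log2 difference between 10 and 2.5 μM Omomyc at 24 h (x axis, of RPKM + 0.5) against the negative log10 of the unadjusted limma p (y axis) for the 15039 genes tested. Filled blue points are protein-coding and other genes past the threshold and open red circles are pseudogenes past it, and most points past the threshold with a log2 difference above 1 are pseudogenes.

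The 4 protein-coding genes that fell were FOS, EGR1, ID2 and DHRS2. FOS and EGR1 are immediate early transcription factors, ID2 is an inhibitor of E-protein transcription factors, and DHRS2 is a reductase of the short-chain dehydrogenase family. FOS (ENSG00000170345, chr14:75278774-75282230, plus strand, GRCh38) was at 7.73, 8.45 and 9.26 RPKM in the 3 libraries of 10 μM and at 30.3, 35.4 and 19.2 RPKM in those of 2.5 μM. Every library of the higher dose lay below every library of the lower dose, and the 3 untreated libraries, at 106.4, 115.3 and 98.4 RPKM, lay above both. The fall from the lower to the higher dose was 3.12-fold, with a log2 difference of -1.64 (SE 0.184, 95% interval -2.05 to -1.23, adjusted p = 0.0116). EGR1 (chr5:138465490-138469315) was at 4.47, 3.71 and 4.75 RPKM at 10 μM and at 9.85, 9.92 and 12.8 RPKM at 2.5 μM. The untreated libraries were again the highest, at 21.8, 20.3 and 21.5 RPKM, and the doses differed 2.36-fold (log2 difference -1.24, SE 0.123, adjusted p = 0.00577). The adjusted p of FOS rose to 0.0762 without 10 μM replicate 1 and to 0.0872 without 10 μM replicate 2, with log2 differences of -1.58 and -1.64, while that of EGR1 was at most 0.0387 whichever library was left out. Both calls were lost with no filter on low values (adjusted p = 0.279 for FOS and 0.146 for EGR1) and without the mean trend of the variance (0.149 and 0.0966).

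ID2 (chr2:8678845-8684453) was at 12.8, 15.3 and 13.7 RPKM at 10 μM and at 21.8, 22.1 and 23.6 RPKM at 2.5 μM. The untreated libraries held 64.2, 65.0 and 66.5 RPKM, so that the step from untreated cells to the lower dose was larger than the step between the doses, which was 1.59-fold (log2 difference -0.67, SE 0.0763, adjusted p = 0.0116, or 0.0522 without 10 μM replicate 1). ID2 lies across from the antisense gene ID2-AS1. DHRS2 stood at 12.9, 13.0 and 12.9 RPKM at 10 μM and at 18.9, 22.3 and 24.8 RPKM at 2.5 μM, a 1.67-fold fall (adjusted p = 0.0190, and up to 0.117 without 1 library). The calls on ID2 and DHRS2 were lost in those settings too (adjusted p of 0.121 to 0.279) and with all 5 HCT116 groups in the fit (0.0561 for both). Unlike FOS, EGR1 and ID2, DHRS2 was not highest in untreated cells, where it read 17.3, 19.6 and 20.0 RPKM, and all 3 of these values were above those of the higher dose.

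**Figure D2:**
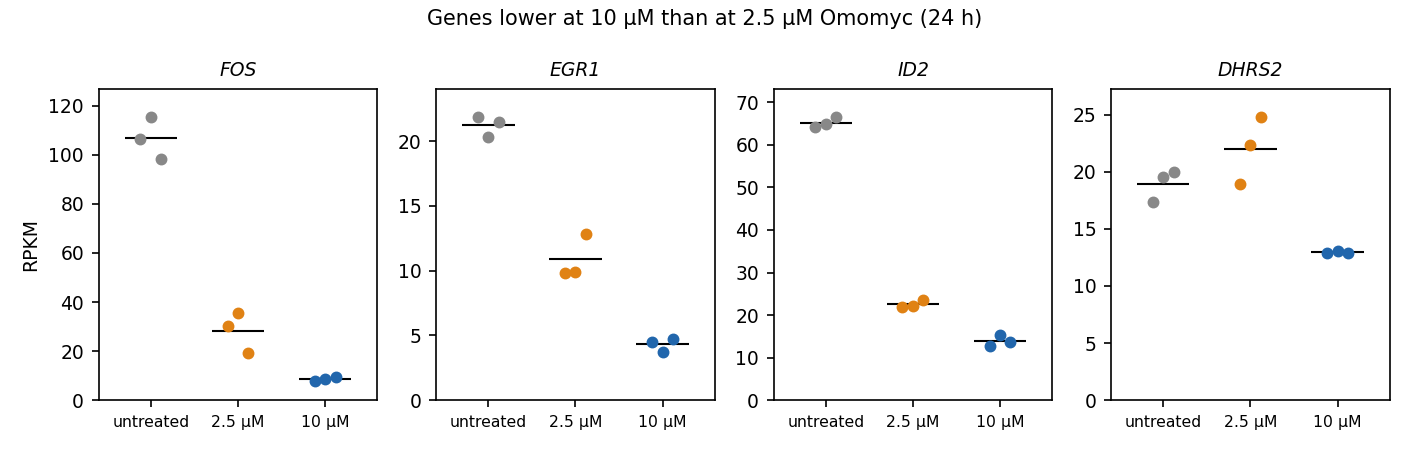
RPKM of FOS, EGR1, ID2 and DHRS2 (y axes, each from 0) in the 3 untreated libraries and the 3 libraries of each Omomyc dose at 24 h. Points are libraries and bars are group means, and in each gene the 3 libraries of 10 μM lie below the 3 of 2.5 μM.

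Relatives of FOS and EGR1 also had lower means at 10 μM. Of the 7 FOS and JUN genes tested, which encode the subunits of the AP-1 transcription factor, 1 passed the threshold (FOS, where 0.0399% of all genes were called lower), and 0 to 3 passed over the 18 alternative settings and left-out libraries. All 7 had a lower mean at 10 μM, also under each of those 18, and 4 did not overlap between the doses, where 10.6% of all genes did so in this direction. The median of the 7 was -0.46, against -0.02 for all genes tested. FOSB was at 2.82, 1.81 and 1.31 RPKM at 10 μM and 5.57, 6.98 and 4.72 RPKM at 2.5 μM, the libraries did not overlap, and its adjusted p was 0.0524 (log2 difference -1.36). FOSB overlaps ERCC1, a DNA repair gene of the opposite strand. The genes FOSB, JUN, ATF3, ZFP36 and KLF10 were chosen after their values were seen. JUNB, the most abundant of the 7, held 26.4, 30.2 and 25.2 RPKM against 38.9, 35.5 and 38.1 RPKM (log2 difference -0.46, adjusted p = 0.0690), while JUND, at 21.5, 27.9 and 23.0 RPKM against 26.8, 24.3 and 26.7 RPKM, overlapped (log2 difference -0.11, 95% interval -0.32 to 0.10). JUN gave a log2 difference of -0.55 with an adjusted p of 0.281.

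Of 14 other immediate early genes tested, 1 passed (EGR1), all 14 had a lower mean at 10 μM, 11 did not overlap between the doses where 10.6% of all genes did so in this direction, and 8 had an unadjusted p under 0.05 where 5.98% of all genes did. Their median was -0.26. IER2, a nuclear immediate early protein, was at 28.98, 31.1 and 32.1 RPKM at 10 μM and at 35.3, 37.1 and 36.9 RPKM at 2.5 μM, with an adjusted p of 0.206. IER3, the most abundant of the list, overlapped between the doses, with a log2 difference of -0.09. The stress factor ATF3 gave -0.54 (adjusted p = 0.146), ZFP36, which promotes decay of AU-rich mRNAs, -0.45 (adjusted p = 0.108), and KLF10 -0.27 (adjusted p = 0.202). Against untreated cells, in comparisons that share the untreated libraries, the FOS and JUN genes had a median of 0.05 at 2.5 μM and -0.41 at 10 μM, and the other immediate early genes -0.17 and -0.59. Of 16 genes of ERK output and feedback, which include the ERK phosphatases and the Sprouty inhibitors, 0 passed the threshold (limma), 0 were higher and 5 lower at an unadjusted p under 0.05, and the median was -0.12. DUSP6, the ERK phosphatase, was at 51.7, 56.2 and 50.9 RPKM against 64.1, 74.1 and 58.1 RPKM (adjusted p = 0.258), and CCND1, which encodes cyclin D1, at 111, 96.3 and 106 RPKM against 110, 104 and 128 RPKM (adjusted p = 0.626).

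The promoter of EGR1 is shown because it holds the sites of serum response factor, the CArG boxes, for which EGR1 is known. EGR1 and the window were chosen after the values were seen. The 250 bases before the RefSeq start (GRCh38.p14, chr5:138465229-138465478, plus strand) held 2 CArG boxes, in capitals, which begin 105 and 83 bases before the start, where 1.44% of 27305 genes with a promoter held any in this window. Of the FOS and JUN genes with a RefSeq promoter 0 of 6 held one, and of the other immediate early genes 2 of 11 did (EGR1 and EGR2). Bases further upstream were not searched, so a gene without a match here may hold a CArG box there.
EGR1: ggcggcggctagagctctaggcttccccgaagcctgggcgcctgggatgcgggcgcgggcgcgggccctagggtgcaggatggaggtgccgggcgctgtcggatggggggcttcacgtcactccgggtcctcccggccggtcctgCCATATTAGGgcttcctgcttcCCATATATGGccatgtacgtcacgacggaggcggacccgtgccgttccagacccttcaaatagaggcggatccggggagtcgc

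The ID genes and the E proteins they bind had lower means as well. Of 5 tested, 1 passed (ID2, where 0.0399% of all genes were called lower), and 0 passed under the 3 settings in which ID2 lost its call or without 10 μM replicate 1. Of the 5, 0 had a higher mean at 10 μM, and the median was -0.29. ID1 was at 87.7, 102 and 86.1 RPKM at 10 μM and at 115, 119 and 102 RPKM at 2.5 μM, where replicate 2 of the higher and replicate 3 of the lower dose nearly met (adjusted p = 0.255). ID3 was at 16.7, 20.9 and 18.2 RPKM against 22.5, 26.3 and 26.2 RPKM, a log2 difference of -0.42 that did not pass (adjusted p = 0.178). TCF3, an E protein, gave -0.12 (adjusted p = 0.471). Against untreated cells the median of the 5 was -1.27 at 2.5 μM and -1.55 at 10 μM.

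The genes the study measured by RT-PCR did not pass the threshold between the doses. That RT-PCR compared cells with and without 10 μM Omomyc at 24 h, which is a different comparison from the step between doses. ASNS, which makes asparagine, was at 42.7, 43.5 and 41.3 RPKM at 10 μM and at 46.0, 50.3 and 42.2 RPKM at 2.5 μM, and the groups overlapped (log2 difference -0.12, 95% interval -0.27 to 0.04). Both groups lay far below the untreated mean of 127 RPKM. SAT1, which acetylates polyamines, was at 166, 192 and 171 RPKM against 227, 295 and 186 RPKM (log2 difference -0.40, 95% interval -0.71 to -0.08, adjusted p = 0.337), with an untreated mean of 640 RPKM. EGR2, at 0.342, 0.115 and 0.316 RPKM against 0.730, 0.609 and 1.24 RPKM, did not overlap and gave a log2 difference of -0.83 (adjusted p = 0.253), and the untreated mean of 0.713 RPKM lay within the range of the lower dose. CD274, which encodes PD-L1 and had a mean under 2 RPKM, overlapped, with a log2 difference of -0.0035 and a 95% interval of -0.43 to 0.42. MYC itself was at 97.7, 93.2 and 96.7 RPKM against 92.7, 96.3 and 98.1 RPKM, a log2 difference of 0.0024 with a 95% interval of -0.11 to 0.12, and MAX at 15.9, 15.8 and 16.5 RPKM against 15.2, 16.7 and 17.4 RPKM (95% interval -0.18 to 0.12). By a two-sided exact permutation test, in which 3 libraries against 3 cannot go below p = 0.1, ID3 and EGR2 reached 0.1, SAT1 0.2, ASNS 0.3, MAX 0.6, MYC 0.9 and CD274 1.

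Genes of sterol synthesis had higher means at 10 μM, and theirs was the highest median among the lists with at least 5 genes tested. All 23 genes of sterol synthesis and uptake that were listed passed the filter and were tested, and 3 of them passed the threshold, MSMO1 and CYP51A1 among them, all higher (13.0% of the list, against 0.14% of all genes in this direction). All 23 had a higher mean at 10 μM, 14 did not overlap between the doses where 7.51% of all genes did so in this direction, and 17 had a 95% interval above 0. Their median was 0.33, with a range from 0.12 for MVK to 0.52 for MSMO1, and it lay between 0.26 and 0.41 over the 18 alternative settings and left-out libraries, in each of which all 23 were higher and between 0 and 6 passed.

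MSMO1, a C4-methylsterol oxidase, was at 37.6, 39.9 and 36.0 RPKM at 10 μM and at 26.1, 28.9 and 23.6 RPKM at 2.5 μM, a 1.44-fold difference (SE 0.0779 on the log2 scale, adjusted p = 0.0408). CYP51A1, the lanosterol demethylase, was at 69.7, 67.8 and 63.9 RPKM against 51.2, 52.7 and 46.1 RPKM (1.34-fold, adjusted p = 0.0459). In both genes the untreated mean was lower again, 19.8 RPKM for MSMO1 and 44.5 RPKM for CYP51A1. The calls were lost without any 1 library except 2.5 μM replicate 2 for MSMO1 (adjusted p up to 0.189) and without any 1 library for CYP51A1 (up to 0.233), with lowest log2 differences of 0.45 and 0.37, respectively. FDFT1, squalene synthase, was at 51.2, 58.4 and 50.4 RPKM against 36.2, 41.9 and 34.6 RPKM with an adjusted p of 0.0736. FDFT1 was chosen after its values were seen, and its groups did not overlap. FDPS, the most abundant of the list, was at 124, 135 and 122 RPKM against 108, 116 and 101 RPKM (adjusted p = 0.259). Against untreated cells the median of the 23 genes was 0.27 at 2.5 μM and 0.59 at 10 μM. CYP51A1 lies across from an antisense gene on the other strand, and how the authors counted strand is not given in the sources used here.

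**Figure D3:**
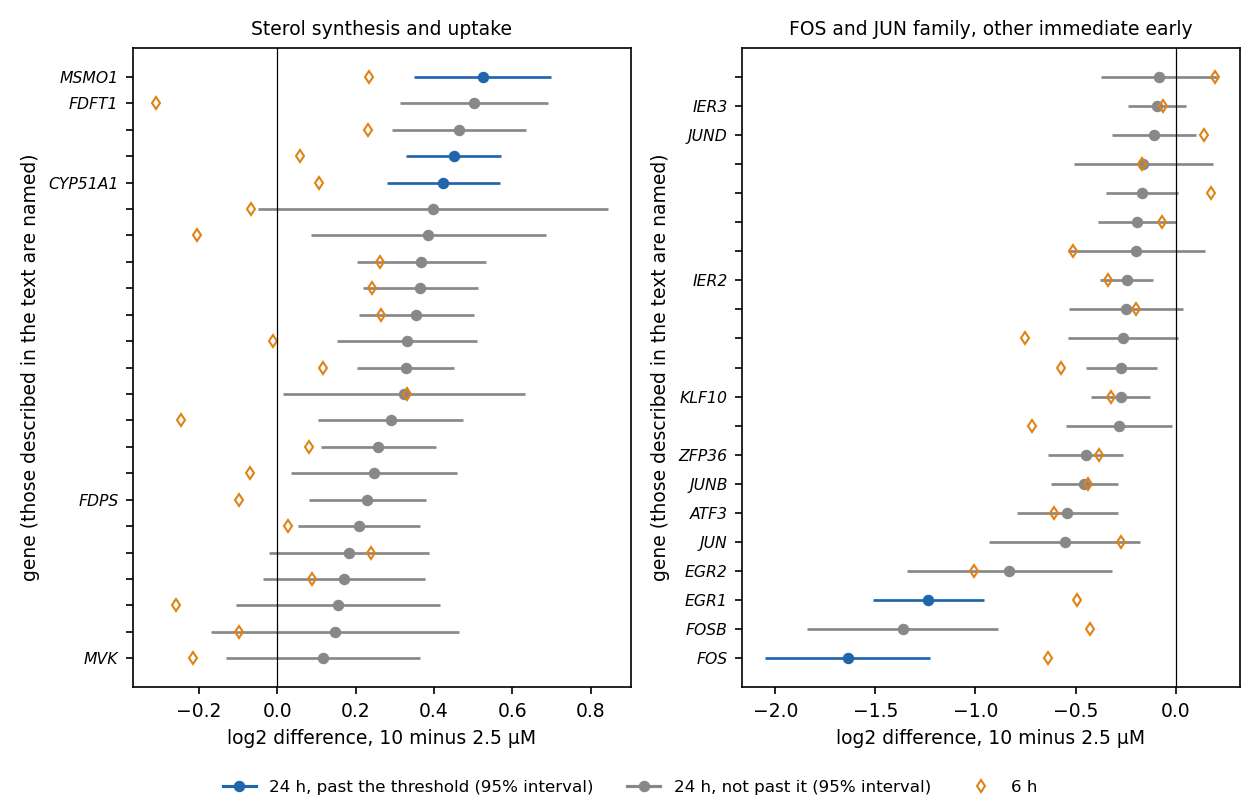
Log2 difference between 10 and 2.5 μM Omomyc (x axes) for the 23 sterol genes (left) and the 21 FOS, JUN and other immediate early genes (right) tested at 24 h. Names are printed for genes described in the text, circles with 95% intervals are 24 h, blue where the gene passed the threshold, and open diamonds are the same step at 6 h, and the 24 h points lie above 0 for all 23 sterol genes and below 0 for all 21 others.

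Another 4 protein-coding genes rose. ACAT2, which makes acetoacetyl-CoA in the cytosol, was at 26.7, 26.7 and 24.9 RPKM at 10 μM and at 18.7, 19.5 and 16.2 RPKM at 2.5 μM (1.43-fold, adjusted p = 0.0408). FADS1, the delta-5 fatty acid desaturase, was at 31.5, 34.8 and 32.9 RPKM against 23.7, 26.2 and 23.5 RPKM (1.35-fold, adjusted p = 0.0481), and the untreated libraries, at 24.0, 25.6 and 24.4 RPKM, lay within the range of the lower dose. TLCD1, a membrane protein with a TLC domain, was at 24.2, 26.7 and 24.9 RPKM against 18.8, 16.6 and 17.9 RPKM (1.41-fold, adjusted p = 0.0299). ALG5, a glucosyltransferase of N-glycan assembly in the endoplasmic reticulum, was at 37.6, 37.7 and 35.3 RPKM against 28.9, 28.1 and 28.9 RPKM (1.28-fold, adjusted p = 0.0435). In all 4 the doses did not overlap, and each lies across from another gene on the other strand (TCP1, FADS2, RPL23A and EXOSC8, respectively). Leaving out 1 library took the adjusted p of these 4 to between 0.168 and 0.255 at its highest.

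SLC38A5, a glutamine transporter, was at 36.4, 35.9 and 36.7 RPKM at 10 μM and at 28.1, 26.3 and 28.7 RPKM at 2.5 μM, above 16.0, 15.9 and 15.5 RPKM in untreated cells. The doses differed 1.31-fold (log2 difference 0.39, SE 0.0555, adjusted p = 0.0380), and the adjusted p lay between 0.0574 and 0.172 without any 1 library. It belongs to none of the lists. Of the 10 listed amino acid transporters tested, 0 passed the threshold (limma), and the median was 0.14. At an unadjusted p under 0.05, 3 of the 10 were higher and 0 lower, where 5.59% and 5.98% of all genes were. SLC3A2, the heavy chain shared by several transporters, was at 184, 181 and 189 RPKM against 152, 141 and 175 RPKM (adjusted p = 0.282), and SLC38A2 gave a log2 difference of 0.13 (adjusted p = 0.505). SLC38A5 was the single gene of the 11 past the threshold with a RefSeq promoter, out of 27, whose 300 bases held an E box CACGTG (9.09%, against 8.77% of all 27305 genes with a promoter and 12.7% of 10168 of the genes tested). Its printed window of 250 bases lies at chrX:48470261-48470510 (GRCh38.p14, minus strand), and the E box, in capitals, begins 206 bases before the start.
SLC38A5: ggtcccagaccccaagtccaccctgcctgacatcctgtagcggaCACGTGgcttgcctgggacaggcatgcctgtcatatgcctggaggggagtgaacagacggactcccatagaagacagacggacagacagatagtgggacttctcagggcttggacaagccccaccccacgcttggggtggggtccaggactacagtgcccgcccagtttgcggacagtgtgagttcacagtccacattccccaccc

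The promoters of the sterol genes shared another short motif. Of the 17 sterol genes with a RefSeq promoter, 15 (88.2%) held CCAAT on either strand in the 250 bases before the start. In that window 37.0% of all genes with a promoter and 41.6% of the genes tested held it. Among the genes past the threshold, 2 of the 11 with a RefSeq promoter (18.2%) held it there. These were MSMO1, which rose, and ID2, which fell. CYP51A1 was not among the 15 sterol genes with a match. The motif thus goes with the sterol list and was not more frequent among the genes past the threshold. CCAAT is the core of the site of NF-Y, which is known to bind beside SREBP. The motif was chosen after the values were seen and a match is a description of these letters. MSMO1 is shown (chr4:165327419-165327668, plus strand, GRCh38.p14), with its 4 matches in capitals, on either strand, beginning 185, 139, 76 and 34 bases before the start.
MSMO1: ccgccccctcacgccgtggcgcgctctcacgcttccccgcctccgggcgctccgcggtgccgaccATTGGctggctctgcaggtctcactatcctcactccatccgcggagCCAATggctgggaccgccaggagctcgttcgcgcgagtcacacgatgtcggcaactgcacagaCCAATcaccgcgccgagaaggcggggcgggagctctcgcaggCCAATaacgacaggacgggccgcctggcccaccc

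**Figure D4:**
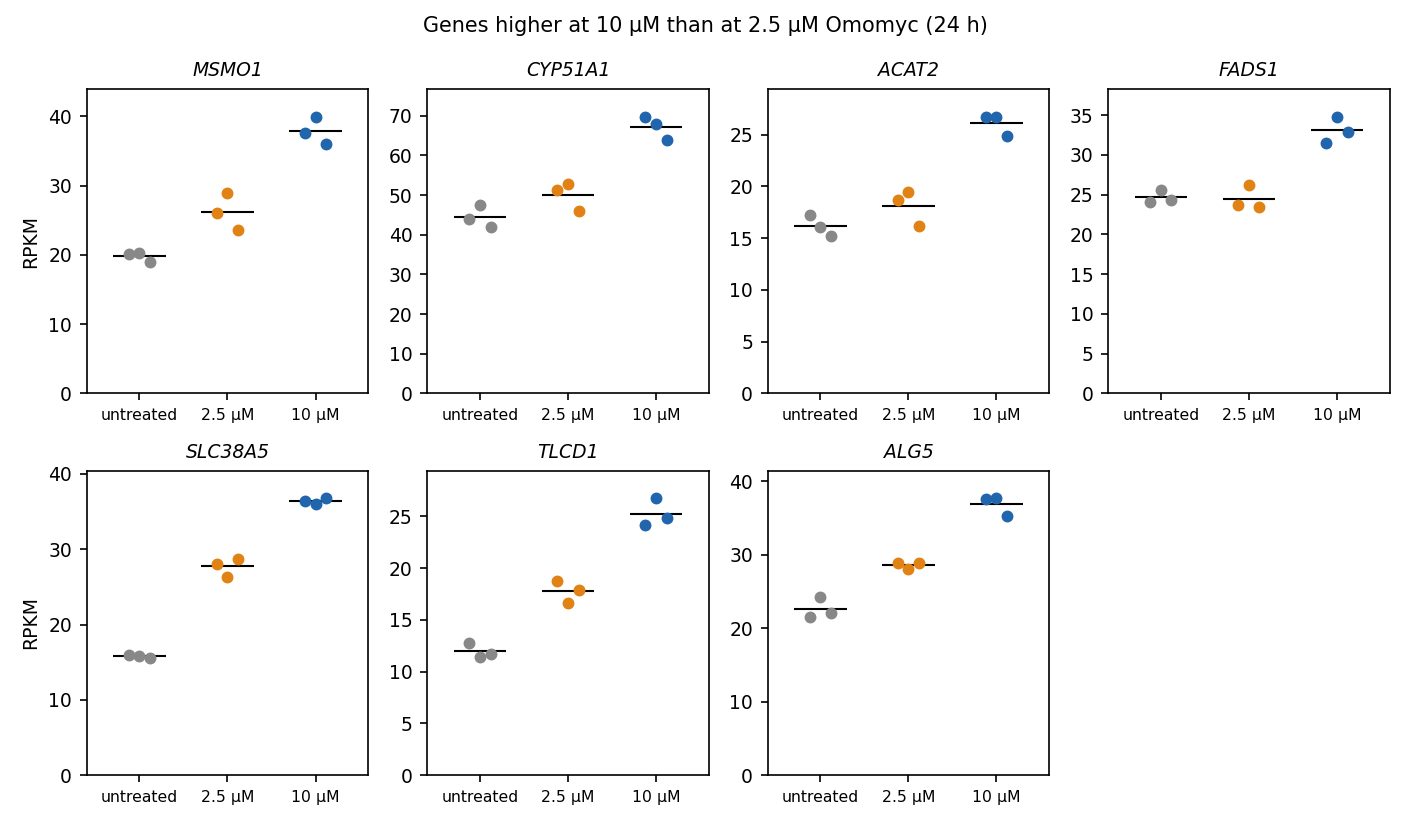
RPKM of 7 protein-coding genes past the threshold and higher at 10 μM (y axes, each from 0) in the 3 untreated libraries and the 3 libraries of each Omomyc dose at 24 h. Points are libraries and bars are group means, and the mean at 2.5 μM lies between the other means in each gene except FADS1.

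In 10 of the 14 protein-coding genes past the threshold the mean at 2.5 μM lay between the untreated mean and the mean at 10 μM. These genes were selected on the difference between the doses, and the share among all genes tested was not computed. The count therefore describes these genes only. The exceptions were DHRS2, FADS1, HIST2H4B and S100A9. HIST2H4B (chr1:149854045-149861210), a gene for histone H4, was at 31.3, 29.4 and 27.8 RPKM at 10 μM, at 6.35, 8.41 and 6.05 RPKM at 2.5 μM and at 19.8, 17.1 and 18.6 RPKM in untreated cells. The doses differed 4.07-fold (log2 difference 2.03, SE 0.112, adjusted p = 0.000101), and HIST2H4B passed under every setting and without any 1 library. Its near-identical copy HIST2H4A held 1504 to 1677 RPKM at 10 μM and 1370 to 1605 RPKM at 2.5 μM, so that HIST2H4B made up 1.72 to 1.91% of the sum of both at the higher dose and 0.375 to 0.61% at the lower. HIST2H4A itself did not pass (log2 difference 0.10, adjusted p = 0.711). RSEM, which is named in the processing notes, divides reads between such copies by estimation, and the value of HIST2H4B alone is uncertain for that reason. S100A9, an inflammatory calcium-binding protein whose mean RPKM was under 2, was at 2.38, 2.56 and 2.64 RPKM at 10 μM and listed at 0 in all 3 libraries of 2.5 μM, and it read 0.622, 0.720 and 0.828 RPKM in untreated cells. Its partner S100A8 was also listed at 0 in those 3 libraries and at 0.740, 0.653 and 0.522 RPKM at 10 μM, below the filter. S100A9 and S100A8 were named after their values were seen.

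The pseudogenes past the threshold were 10 that rose and 1 that fell. RPS3AP26, a processed copy of the ribosomal protein gene RPS3A, was at 8.60, 8.44 and 7.59 RPKM at 10 μM and at 2.15, 2.04 and 1.76 RPKM at 2.5 μM (log2 difference 1.81, adjusted p = 0.000101), and it too passed under every setting and without any 1 library. RPS3A held 1232 to 1536 RPKM and 1251 to 1368 RPKM at these doses and did not pass (adjusted p = 0.755). EEF1A1P5, a copy of the gene for elongation factor EEF1A1, was at 50.8, 61.0 and 50.1 RPKM against 103, 112 and 92.6 RPKM (log2 difference -0.92, adjusted p = 0.00577, but 0.146 with no filter on low values, 0.107 without the trend and 0.0846 with all 5 groups in the fit), and it made up 1.05 to 1.19% of the sum with EEF1A1 at 10 μM and 2.05 to 2.33% at 2.5 μM. HNRNPA1P7, AC116533.1 and RPL21P16 gave log2 differences of 1.20, 1.19 and 0.90 (adjusted p = 0.00890, 0.0299 and 0.0288), with adjusted p without 1 library of up to 0.0522, 0.136 and 0.168. Their calls were lost with no filter on low values (limma, adjusted p = 0.151, 0.279 and 0.279) and without the trend (0.0966, 0.255 and 0.255). With all 5 groups in the fit, HNRNPA1P7 and AC116533.1 lost their calls too (0.859 and 0.593), while RPL21P16 kept it (0.0131). The other RNAs were RN7SKP80, a copy of the 7SK RNA annotated as miscellaneous RNA, at 40.5, 45.4 and 35.1 RPKM against 7.47, 17.8 and 10.2 RPKM (adjusted p = 0.0295, up to 0.187 without 1 library), and RF00003, a U1 small nuclear RNA copy, at 23.8, 25.9 and 30.6 RPKM against 42.8, 39.8 and 50.7 RPKM (adjusted p = 0.0408, up to 0.189). The calls on RN7SKP80 and RF00003 were lost with no filter (limma, adjusted p = 0.297 for both) and without the trend (0.255 for both). They were also lost with all 5 groups in the fit (0.0891 and 0.887), and that on RF00003 with quantile normalization (0.0571). Reads of pseudogenes and of such RNA copies may have been divided among similar sequences, which makes these values uncertain, and how many reads were shared was not measured here. On the same strand, RPS3AP26 overlaps BAIAP2L1, HNRNPA1P7 overlaps GAREM1, AC116533.1 overlaps PLEKHA7 and RN7SKP80 overlaps RRP7BP. EEF1A1P5, RPL21P16 and RF00003 overlap no annotated gene. Whether reads of the overlapping genes entered these values was not tested.

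In several further groups members leaned to one side without passing the threshold, and 0 members of each were called (limma) where 0.18% of all genes were. Of 19 chaperones and unfolded protein response genes of the endoplasmic reticulum, 17 had a higher mean at 10 μM, 13 were higher without overlap where 7.51% of all genes were, 12 were higher and 0 lower at an unadjusted p under 0.05 where 5.59% and 5.98% of all genes were, and the median was 0.13. HSP90B1 was at 523, 497 and 527 RPKM at 10 μM against 489, 483 and 462 RPKM at 2.5 μM (adjusted p = 0.525), and CANX at 484, 485 and 470 RPKM against 445, 445 and 422 RPKM (adjusted p = 0.416). The medians of this list against untreated cells were 0.34 at 2.5 μM and 0.47 at 10 μM. Of 23 lysosome and autophagy genes, 11 were higher and 1 was lower at an unadjusted p under 0.05, with a median of 0.09. PSAP, the precursor of the saposins, was at 227, 230 and 230 RPKM against 200, 201 and 208 RPKM (adjusted p = 0.255), while SQSTM1, an autophagy receptor, overlapped (log2 difference -0.02, 95% interval -0.19 to 0.14). Of 12 NF-κB targets, 11 had a lower mean at 10 μM and 4 were lower at an unadjusted p under 0.05, with a median of -0.29. That median was -0.18 without 2.5 μM replicate 3, when 9 of 12 were lower, -0.17 over 14 genes with no filter and -0.08 over the 7 genes with a mean of at least 2 RPKM. NFKB2 was at 20.4, 19.8 and 22.1 RPKM against 25.5, 25.2 and 27.4 RPKM (adjusted p = 0.143), and TNFAIP2 gave -0.08 (adjusted p = 0.688).

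Lists of genes for ribosomes, DNA replication and mitosis had medians within 0.1 of 0 and 0 members past the threshold (limma). Of 79 cytosolic ribosomal protein genes, 62 had a higher mean at 10 μM, as did 6601 of the 15039 genes tested, 3 were higher and 0 lower at an unadjusted p under 0.05, and the median was 0.04. Without 10 μM replicate 2 that median was 0.00197 with 40 of 79 higher, without 10 μM replicate 3 it was 0.11 with 76 higher, and without 10 μM replicate 1 or 2.5 μM replicate 3 it was 0.0227 and 0.0203. Quantile normalization and an equal sum gave 0.0145 and 0.0129. Of 40 ribosome biogenesis genes, 28 had a higher mean at 10 μM, and the median was 0.04. At an unadjusted p under 0.05 (limma), 6 of them were higher and 0 lower, where 5.59% and 5.98% of all genes were. The 11 genes whose promoters the study examined by ChIP had a median of 0.01, 23 DNA replication genes 0.00585, 20 mitosis genes 0.00385 and 20 cytosolic aminoacyl-tRNA synthetases -0.00838. The 11 ATF4 target genes of amino acid synthesis, with a median of -0.42 at 2.5 μM and -0.41 at 10 μM against untreated cells, had a median of -0.06 between the doses, and none of the 11 had an unadjusted p under 0.05 in either direction. ATF4, the factor itself, was at 210, 207 and 192 RPKM against 204, 223 and 205 RPKM (log2 difference -0.06, 95% interval -0.19 to 0.08). The 13 mRNAs of the mitochondrial genome, which were 0.815 to 1.77% of the summed RPKM at 10 μM and 1.19 to 1.88% at 2.5 μM, had a median of -0.20, which lay between -0.47 and 0.09 over the settings and left-out libraries, and 1 had an unadjusted p under 0.05. Medians of the remaining lists with at least 5 genes tested are shown in the plot of gene lists.

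**Figure D5:**
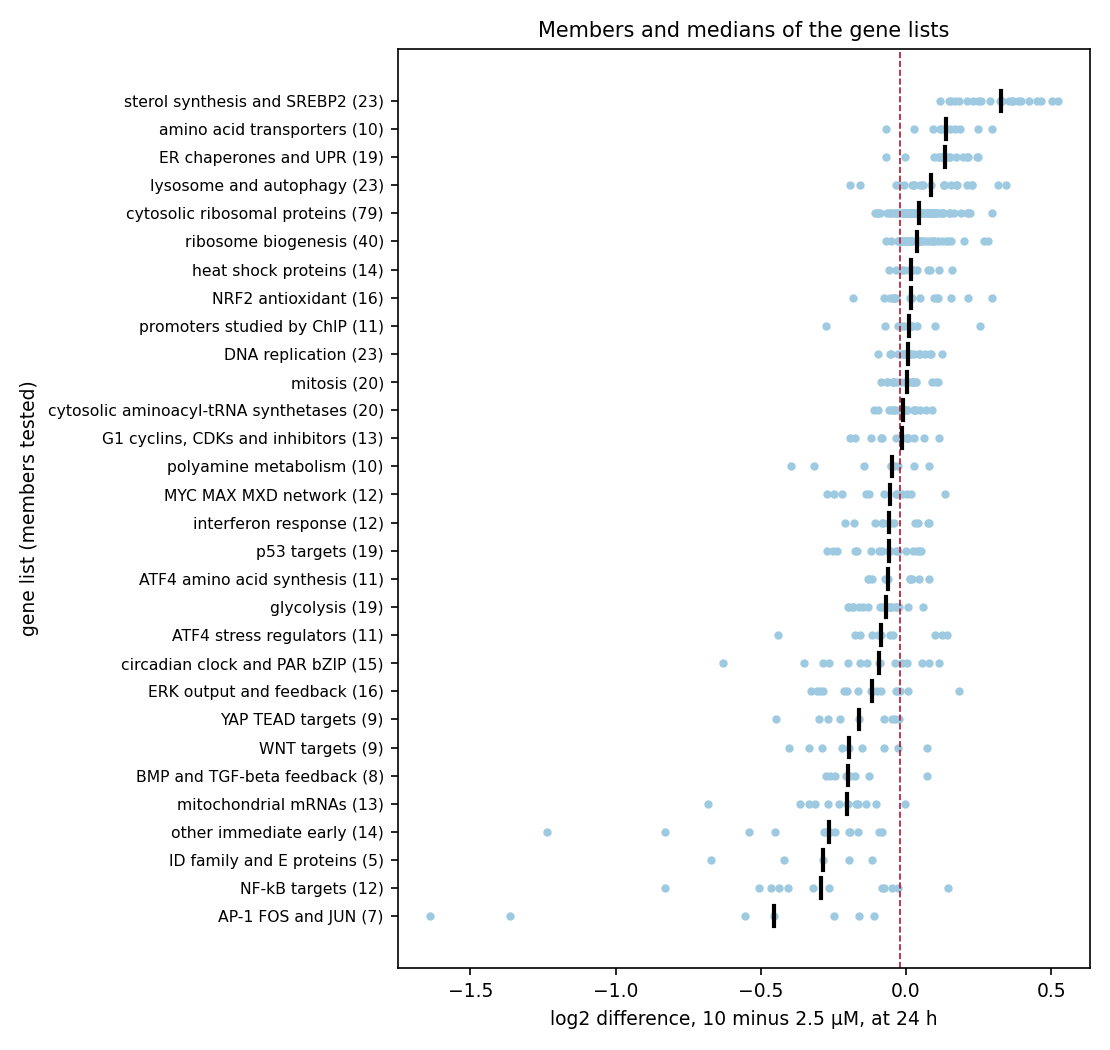
Log2 difference between 10 and 2.5 μM Omomyc at 24 h (x axis) for the members of each gene list (y axis, with the number tested). Light points are genes, black bars are list medians and the dashed line is the median of all genes tested (-0.0191), and the medians run from -0.46 for the FOS and JUN genes to 0.33 for sterol synthesis.

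The same step in dose at 6 h used 6 other libraries. Of 14601 genes tested at 6 h, 0 had an adjusted p under 0.05 (limma) and 1242 (8.51%) an unadjusted p under 0.05. Replicate 3 of 10 μM at 6 h stood apart, with an RPKM sum of 1051041 against 742468 to 836899 in the other 5 libraries and correlations within its group down to 0.968, and without it 93 genes passed, 60 of them higher. Across 14320 genes the log2 differences at 24 and 6 h had a Pearson correlation of 0.114 and a Spearman correlation of 0.115, a description across genes, which are not independent replicates. Of the 14 protein-coding genes past the threshold at 24 h, 11 had the same direction at 6 h with all libraries, and 11 without that replicate. FOS gave -0.64 at 6 h and EGR1 -0.49, and in both the doses did not overlap, with FOS at 76.0, 89.1 and 72.4 RPKM at 10 μM and 106, 130 and 136 RPKM at 2.5 μM. At 6 h the lower dose overlapped the untreated range of FOS, 98.4 to 115.3 RPKM, and the higher dose lay below that range, whereas at 24 h both doses lay below it. The same untreated libraries, whose time is not given, served for both times.

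Of 23 FOS, JUN and other immediate early genes tested at 6 h, 20 had a lower mean at 10 μM, and 19 without the replicate that stood apart. Their median with all libraries was -0.43, against -0.021 for all genes tested at 6 h. Other lists leaned lower too, with 79 of 79 cytosolic ribosomal protein, 21 of 23 DNA replication and 19 of 20 mitosis genes. Without that replicate these counts were 79, 12 and 14. Of 10 amino acid transporters 10 were higher, as were 17 of 19 chaperones and unfolded protein response genes of the endoplasmic reticulum. The direction alone was thus not particular to immediate early genes. Of the 23 sterol genes, 13 had a higher mean at 6 h with a median of 0.06, and 16 with a median of 0.14 without that replicate. Whether the step differed between the times was tested by the interaction of dose and time over the 12 libraries. Of 14856 genes, 1 (0.00673%) passed (limma), the pseudogene GUSBP9, and 1239 (8.34%) had an unadjusted p under 0.05. Without that replicate 28 genes passed. FOS and EGR1 had interaction terms of -1.001 and -0.74 (24 h minus 6 h) with adjusted p of 0.378 and 0.449, so a difference between the times was not detected for them.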

How the data were processed

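Total RNA, depleted of rRNA with a stranded kit, was sequenced from HCT116 cells. The authors deposited a table of RPKM values for 57992 genes made with RSEM, which their processing notes name without a version; the aligner, genome build and strand setting are not given in the sources used here. Of the genes, 57388 were matched to GENCODE 29 (GRCh38). Groups came from the labels. Log2(RPKM + 0.5) was fitted with limma 3.58.1 (lmFit, eBayes with a trend) in R 4.3.3 for genes with a mean of at least 0.5 RPKM over the libraries compared, with a Benjamini-Hochberg adjusted p under 0.05 over all genes tested as the threshold; folds are of RPKM + 0.5. Depth is unknown and no interval for it is given.

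The comparisons were 10 against 2.5 μM at 24 h, the same at 6 h and their interaction. The procedure was tested on simulated data. Alternatives changed the pseudocount, filter, scaling, model, threshold or libraries; list values under each, and 6 h values without 1 library, were added after the data were seen. Named were 7 genes of the study, up to 12 protein-coding and 4 other genes with the largest rises and falls past the threshold with a mean of at least 2 RPKM and no overlap, and up to 4 called members of a list, or the 2 most abundant where fewer than 2 were called. Members, lists and tests were chosen with earlier results of these data known. RefSeq promoters (GRCh38.p14), matched by symbol, run from 250 bases before the start, over 300 bases. Ramos libraries were not used here, and some genes are not reported here.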

Additional observations from a re-analysis of the deposited data

Results flagged for a closer look

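GUSBP9 (ENSG00000235558), a pseudogene of the beta-glucuronidase gene GUSB, was marked because its difference between the doses changed between the times by the test of the interaction itself. It was at 2.06, 2.10 and 3.03 RPKM at 10 μM and 24 h, and at 0, 0 and 0.0158 RPKM at 2.5 μM and 24 h. At 6 h it was listed at 0 in all 3 libraries of 2.5 μM and in 2 of the 3 of 10 μM, the other being at 0.0092 RPKM, and the untreated libraries read 0.716, 0.0333 and 0 RPKM. The interaction was 2.49 on the log2(RPKM + 0.5) scale (limma, adjusted p = 0.00232, 1 of 14856 genes), a value that depends on the pseudocount since the lower dose is near 0. GUSBP9 passed the filter on low values only through the 3 libraries of 10 μM at 24 h, where it was high, so its test is not independent of that choice. The call was absent with a pseudocount of 0.1, with a minimum mean of 2 RPKM, and without any 1 of the 3 libraries of 10 μM at 24 h. GUSB itself was at 10.8, 9.55 and 12.2 RPKM against 9.74, 9.52 and 9.98 RPKM at 24 h and did not pass (adjusted p = 0.586).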

How the results depend on the processing

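The 27 genes past the threshold at 24 h became 7 at an adjusted p under 0.01, 14 with an absolute log2 difference of at least 1, 5 with no filter on low values, 47 with an equal sum of RPKM, 4 without the trend and 8 with all 5 HCT116 groups in the fit, and between 9 (without 10 μM replicate 1, and also without replicate 2) and 24 without 1 library. Replicates 3 of 10 μM and 1 and 3 of 2.5 μM gave 17, 17 and 14. HIST2H4B and RPS3AP26 passed under each of these settings and left-out libraries. FOS and EGR1 lost their calls with no filter and without the trend, and ID2, DHRS2 and EEF1A1P5 in these and with all 5 groups. The calls on MSMO1, CYP51A1, ACAT2, FADS1, TLCD1, ALG5 and SLC38A5 were lost in 4 to 8 of 12 alternatives each, none changing direction. Whether libraries of the same replicate number belong together is not settled, and the main test did not use the number. Correlations of same-numbered deviations were -0.0226 to 0.184 at 24 h, where 3 of 6 libraries correlated best with their own number. At 6 h they were -0.303 to 0.0174, with 0 of 6. With the number as a replicate block, 32 genes passed at 24 h, 2 at 6 h and 1 for the interaction. Genes with an unadjusted p under 0.05 (limma) at 24 h went from 1739 to 2198.

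At 6 h the count lay between 0 and 93 and for the interaction between 0 and 28 without 1 library, the highest without 10 μM replicate 3 at 6 h. The interaction gave 0 genes with a pseudocount of 0.1, 0 with a mean of at least 2 RPKM and 4 with no filter. An equal sum moved the median of all genes to -0.158 at 6 h and 0.108 for the interaction. Among the named genes, directions turned in 4 whose difference was near 0. CD274 gave 0.001552 with a pseudocount of 1, 0.01316 with median-ratio scaling, 0.05235 with quantile normalization, and 0.004732 and 0.01156 with trends on length and GC content removed, and -0.208 to 0.1147 without 1 library. MYC gave -0.03648 with quantile normalization, -0.02829 with an equal sum, and -0.02042 to 0.02228 without 1 library. SQSTM1 gave 0.001657 with median-ratio scaling, 0.01374 with the length trend removed, and -0.07338 to 0.04942, and MAX -0.0839 to 0.009234, without 1 library. The causes were not tested. Depth is unknown, so low values carry an error that cannot be stated, and values near 0 rest on the pseudocount.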
